A study of Mus musculus with 11 samples.

Results

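The nuclear-encoded subunits of the respiratory chain and of ATP synthase are described here in mouse splenic B cells. Members were the genes whose symbol in the array annotation begins with Ndufa, Ndufb, Ndufc, Ndufs or Ndufv (complex I), Sdh (complex II), Uqcr (complex III), Cox4 to Cox8 (complex IV) or Atp5 (complex V). Assembly factors and pseudogenes were left out. This gave 82 genes of the 18193 that had a probe set with a single symbol: 36 of complex I, 4 of complex II, 8 of complex III, 17 of complex IV and 17 of complex V. They were read by 169 probe sets, and 49 of the 82 genes had more than 1.

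The B cells came from female mice aged 6 weeks of the strains NOD/ShiLtJ (NOD), which develop autoimmune diabetes, and NOD.NOR-Chr4/DvsJ (NR4), an NOD line carrying a segment of chromosome 4 from the NOR strain. Each of 3 lots per strain pooled 7 to 8 spleens, and other cells were depleted magnetically. Culture lasted 2 h, either without stimulus or, for the stimulated cells, with 10 µg/ml of goat F(ab')2 fragments against mouse IgM, which cross-link the B cell receptor. There were 3 arrays of unstimulated NOD, 2 of stimulated NOD, 3 of unstimulated NR4 and 3 of stimulated NR4 cells, and replicate numbers are those of the sample titles. Signals are on a log scale taken as log2, and the deposited values are centred so that the median over the 11 arrays is 0 for every probe set. A value therefore says how far an array lies from the middle array for that gene and not how abundant the transcript is, and levels cannot be compared between genes. For the same reason the defining markers of B cells give no level against which the label could be checked. The cells came from whole spleens by depletion, and in bulk RNA fewer cells of a type and less RNA per cell cannot be told apart.

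The respiratory chain passes electrons from NADH (complex I) and succinate (complex II) through coenzyme Q to complex III, then by cytochrome c to complex IV, where oxygen is reduced. Complexes I, III and IV pump protons across the inner mitochondrial membrane, and complex V uses the gradient to make ATP. Resting B cells have low energy needs, and activation is known to be followed by growth and by greater use of glucose and oxygen.

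Respiratory chain genes are known to share promoter sites for the factors NRF1, GABP (an ETS factor) and YY1, and many mammalian promoters hold a CCAAT box. Windows running from 250 bases before to 50 bases after a gene's start were found for 67 of the 82 members in the RefSeq table of GRCm38.p6, 72 windows in all. Both strands were searched for 4 sets of letters, and the matches can overlap. The NRF1 core GCATGCG was in 13.9% of the members' windows and in 3.58% of all 32851 windows of the table, which include noncoding genes. The GABP site CCGGAAG was in 23.6% against 8.86%, the YY1 site AAGATGGCG in 8.33% against 1.40%, and the CCAAT box in 40.3% against 37.4%. The shares are descriptions of letters, and nothing about the factors is drawn from them. The 3 windows printed here hold between them each of the 4 motifs, in capitals on whichever strand it matched. They belong to genes whose values are described further on. They are Ndufs7 (chr10:80249199-80249498, plus strand, YY1), Uqcr11 (chr10:80406772-80407071, minus strand, GABP and then NRF1, read in both directions in overlapping letters) and Uqcrh (chr4:116075021-116075320, minus strand, CCAAT and then GABP on the opposite strand).
Ndufs7: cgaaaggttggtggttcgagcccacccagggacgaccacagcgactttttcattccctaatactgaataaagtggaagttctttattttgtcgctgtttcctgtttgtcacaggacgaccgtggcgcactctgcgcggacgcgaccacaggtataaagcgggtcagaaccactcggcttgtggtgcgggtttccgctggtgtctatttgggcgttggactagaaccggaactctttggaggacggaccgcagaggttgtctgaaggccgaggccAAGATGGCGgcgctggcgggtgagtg
Uqcr11: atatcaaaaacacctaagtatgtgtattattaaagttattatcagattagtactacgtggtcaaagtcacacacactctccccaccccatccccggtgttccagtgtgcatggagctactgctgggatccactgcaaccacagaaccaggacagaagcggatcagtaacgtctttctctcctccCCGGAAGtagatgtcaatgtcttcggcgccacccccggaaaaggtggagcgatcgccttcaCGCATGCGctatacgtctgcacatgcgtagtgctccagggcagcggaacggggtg
Uqcrh: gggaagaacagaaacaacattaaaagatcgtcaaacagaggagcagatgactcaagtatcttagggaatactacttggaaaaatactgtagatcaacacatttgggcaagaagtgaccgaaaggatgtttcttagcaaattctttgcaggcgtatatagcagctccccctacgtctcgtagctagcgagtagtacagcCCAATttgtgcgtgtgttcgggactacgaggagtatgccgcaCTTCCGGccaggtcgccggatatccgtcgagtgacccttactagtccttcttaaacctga

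The first comparison asks whether 2 h of receptor cross-linking changed the transcripts of the chain. No subunit gene passed the test: 0 of 82 members had an adjusted p under 0.05 for the response averaged over both strains, while 1.56% of all genes tested did (limma, Benjamini-Hochberg over 18193 genes). The lowest limma adjusted p among the members was 0.22. Without adjustment, 3 members had p under 0.05, or 3.66% against 11.4% of all genes. With the replicate number as a block 9 members did, or 10.98% against 15.9%, and 0 passed after adjustment beside 3.07% of all genes. Responses lay between -0.24 (Ndufb3) and 0.28 (Uqcr11) in log2 units with a median of -0.00, against 0.00 over all genes, and 39 of the 82 were positive.

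The intervals around these responses were narrow. The 95% interval of the averaged response lay within a 1.5-fold change in either direction for 76 of 82 members, against 87.0% of all genes. It lay within a 2-fold change for 81, the exception being Cox8c. In each strain alone the counts were also 0 of 82, against 0.115% of all genes in NOD and 0.412% in NR4. At an unadjusted p under 0.05 there were 1 member in NOD and 2 in NR4, beside 5.15% and 9.63% of all genes. With the replicate number as a block these were 4 and 7 members, beside 9.34% and 15.0% of all genes. With that block 0 members passed in either strain or in the average, and the lowest limma adjusted p was 0.10.

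**Figure D1:**
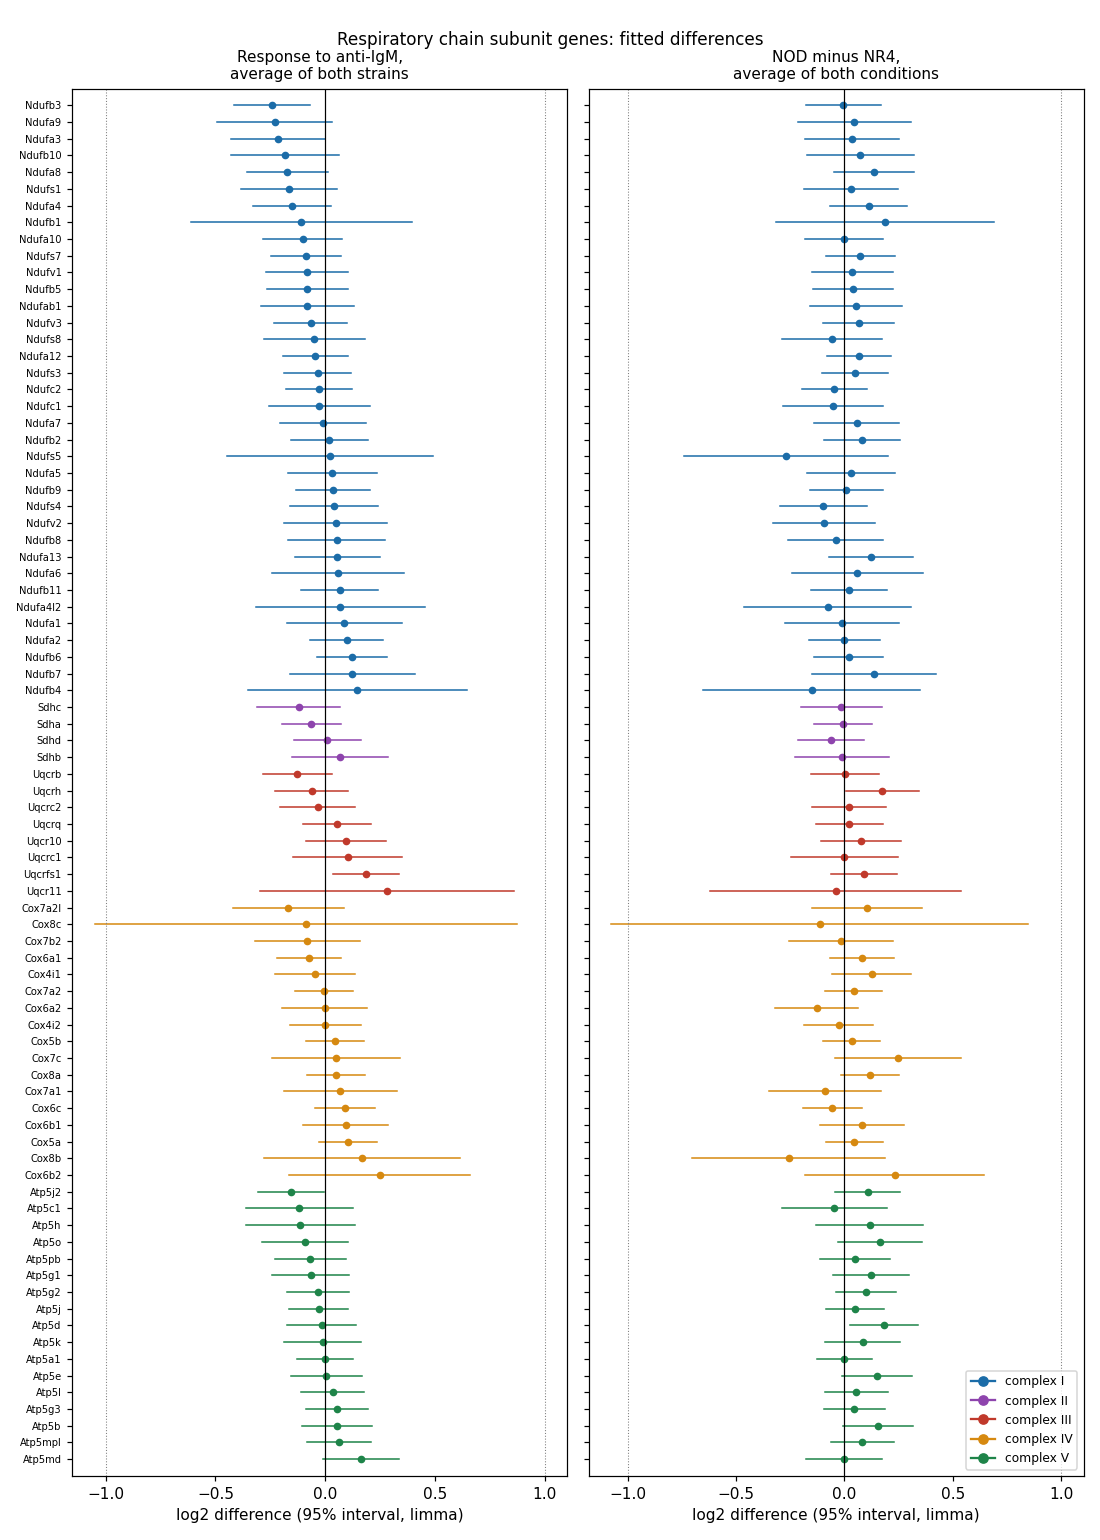
Fitted log2 differences of the 82 subunit genes with limma 95% intervals, coloured by complex and ordered within each complex by response. The left panel shows anti-IgM minus unstimulated (average of both strains) and the right panel NOD minus NR4 (average of both conditions). Most points lie close to 0, dotted lines mark a 2-fold change, and the intervals of Cox8c are the only ones that cross them.

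The second comparison asks whether NOD and NR4 B cells differ in these genes. Again 0 of 82 members passed, for unstimulated cells (0.0605% of all genes called), for stimulated cells (0.0495%) and for the average of both (0.121%), with lowest limma adjusted p of 1.0, 0.996 and 1.0. Unadjusted, 2, 1 and 2 members had p under 0.05, beside 1.54%, 4.34% and 4.39% of all genes. With the replicate number as a block these were 6, 4 and 8 members (7.32%, 4.88% and 9.76%), beside 3.56%, 10.5% and 8.57% of all genes. Averaged differences, NOD minus NR4, lay between -0.27 (Ndufs5) and 0.25 (Cox7c), and their 95% intervals lay within a 2-fold change for 81 of 82. The median was 0.041 over the members and 0.00 over all genes, and it was 0.021 without stimulated NOD replicate 1. In the average 54 of the 82 members (65.9%) were positive against 50.6% of all genes. In unstimulated cells 58 members (70.7%) were positive against 57.1%, with a median of 0.06 against 0.02. Other mitochondrial lists, described further on, mostly leaned the same way, so the lean was not particular to the subunits. In unstimulated cells 61 of 76 mitochondrial ribosome genes (median 0.07), 19 of 22 citric acid cycle genes (0.06) and 19 of 23 import genes (0.08) were positive. The 1 measured subunit encoded in mitochondrial DNA was at -0.07. In stimulated cells 46 members (56.1%) were positive against 47.8%, with a median of 0.01 against -0.01.

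In unstimulated cells, all 3 NOD arrays lay above all 3 NR4 arrays for 13 members, which is 15.9% of them, while 4.01% of all genes did so. No member had all NOD arrays below all NR4 arrays, as 2.37% of all genes did. In stimulated cells, with 2 NOD arrays, 8 members (9.76%) had NOD above NR4, near the 7.97% of all genes. For 2 members (2.44%) NOD lay below NR4, beside 6.14% of all genes. The 13 genes with a gap in unstimulated cells come from complexes I, III, IV and V: Ndufa12, Ndufa13, Ndufb11, Ndufc2, Ndufs7, Uqcrh, Cox4i1, Cox5a, Cox6b1, Cox7a2, Atp5d, Atp5e and Atp5g2. These gaps were small. For Ndufb11, an accessory subunit of the membrane arm, the NOD arrays read 0.01, 0.00 and 0.03 and the NR4 arrays -0.03, -0.11 and -0.02. The 13 genes share these 6 arrays and are not independent of each other. Markers of NK and cytotoxic cells were also mostly higher on NOD arrays. Mean centred signals over their 7 genes were 0.29, 0.11 and -0.04 on unstimulated NOD arrays. Unstimulated NR4 arrays read 0.16, -0.16 and -0.67, so the strains overlapped. Of the 7, 5 were higher in NOD in the averaged comparison and 0 passed the test. All 6 plasma cell markers were lower in NOD in that comparison, with a median of -0.18, and 0 passed. The 9 T cell markers ranged from -0.72 (Cd4) to 1.02 (Cd3g), and 6 were positive. Only Cd4 of these passed, and only with the replicate number as a block (limma adjusted p = 0.025). The part of these cell types in the members' values was not tested.

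The third comparison asks whether the response differed between the strains. No member and no gene at all passed (0 of 82, 0% of all genes, lowest limma adjusted p among members 1.0). Unadjusted, 1 member (1.22%) had p under 0.05, beside 1.40% of all genes. With the replicate number as a block 3 members did (3.66%), beside 5.37% of all genes. Across the 82 members, the response in NOD and the response in NR4 correlated with r = 0.39, and 51 members (62.2%) had the same sign in both. Over all genes r was 0.53 with 60.0% of the same sign. These correlations are across genes measured on the same arrays and carry no test.

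**Figure D2:**
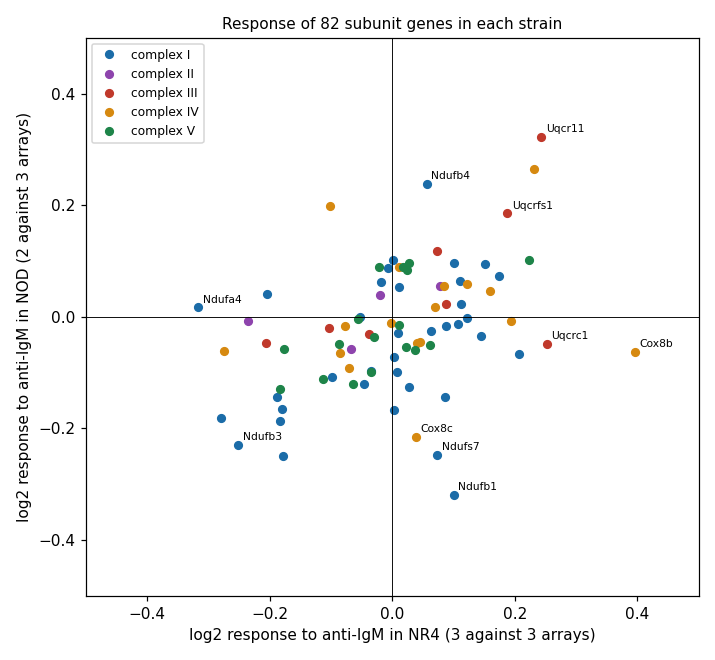
Response to anti-IgM (log2) of each of the 82 subunit genes in NR4 (horizontal, 3 against 3 arrays) and in NOD (vertical, 2 against 3 arrays), coloured by complex. The cloud is centred near 0 on both axes, and Ndufb3 and Uqcrfs1 lie away from 0 in the same direction in both strains while Ndufa4 and Ndufs7 do not.

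Complex I, the NADH dehydrogenase, is the largest complex and has core subunits that carry electrons and many accessory ones. Among its 36 genes the averaged response had a median of -0.03, and 16 were positive. Ndufb3, an accessory subunit of the membrane arm, had the lowest p of all 82 members. Its signal was 0.10, 0.05 and 0.00 in unstimulated NOD, -0.20 and -0.16 in stimulated NOD, 0.15, 0.02 and 0.02 in unstimulated NR4, and -0.37, -0.18 and -0.00 in stimulated NR4. Every stimulated array was below every unstimulated array of its own strain. The averaged response of Ndufb3 was -0.24 (SE 0.08, limma adjusted p = 0.22), with an interval of -0.41 to -0.07.

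Ndufa3, another accessory subunit, came next in complex I with a response of -0.21 (SE 0.10, limma adjusted p = 0.44). The stimulated NOD arrays of Ndufa3 read 0.08 and -0.37, so a single array carries most of the NOD value. Without stimulated NOD replicate 2 the averaged response of Ndufa3 was -0.10, and without replicate 1 it was -0.33. It was -0.12 when its probe sets for shared or similar transcripts were left out. Ndufa4, now counted by many as a subunit of complex IV, had the lowest p in NR4. Its signal in NR4 was 0.03, 0.11 and 0.10 unstimulated and -0.39, -0.31 and -0.01 stimulated, and in NOD 0.08, 0.00 and -0.00 unstimulated and 0.09 and -0.00 stimulated.

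Stimulated NR4 arrays of Ndufa4 were below the unstimulated ones without overlap, and the 5 NOD arrays stayed within a narrow band. The response of Ndufa4 was -0.32 in NR4 (SE 0.11, limma adjusted p = 0.32) and 0.02 in NOD (SE 0.12). The difference between these responses was 0.33 (SE 0.16, limma adjusted p = 1.0), so it was not distinguishable from the spread between arrays. In stimulated cells Ndufa4 was 0.28 higher in NOD (limma adjusted p = 0.996).

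Ndufs7 encodes an iron-sulphur core subunit close to the site where coenzyme Q binds. Its unstimulated NOD arrays read 0.22, 0.24 and -0.00 and its stimulated NOD arrays -0.05 and -0.14. In NR4 the values were -0.02, -0.10 and -0.12 unstimulated and 0.07, -0.09 and -0.01 stimulated. NOD stood above NR4 without overlap before stimulation, and the strains overlapped after it. The unstimulated strain difference was 0.23 (SE 0.10, limma adjusted p = 1.0), the response in NOD -0.25 (SE 0.11, limma adjusted p = 0.92), and the interaction -0.32 (SE 0.14, limma adjusted p = 1.0).

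The core subunits Ndufs1, Ndufs3, Ndufs8, Ndufv1 and Ndufv2 had averaged responses of -0.17, -0.03, -0.05, -0.08 and 0.05. Their averaged strain differences were 0.03, 0.05, -0.06, 0.04 and -0.09. Ndufa8, an accessory subunit, had the lowest p for the averaged strain difference in complex I, at 0.14 (SE 0.08, limma adjusted p = 1.0), with Ndufa4 next at 0.11. Ndufa8 was at 0.083 without stimulated NOD replicate 1. Ndufa4 was at 0.073 without stimulated NR4 replicate 1, at 0.17 without stimulated NR4 replicate 3 and at 0.046 after quantile normalization.

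**Figure D3:**
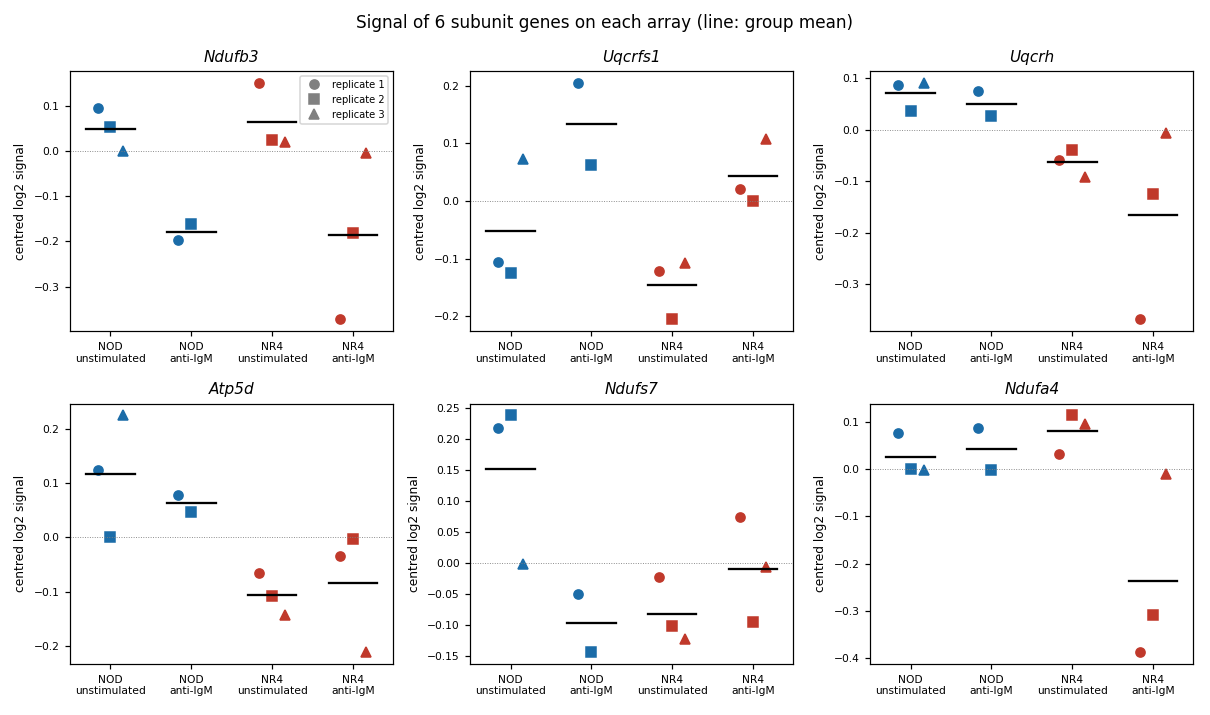
Centred log2 signal of Ndufb3, Uqcrfs1, Uqcrh, Atp5d, Ndufs7 and Ndufa4 on each of the 11 arrays, by group; symbols mark the replicate number, blue is NOD, red is NR4 and the line is the group mean. Stimulated arrays lie below unstimulated ones of the same strain for Ndufb3, and NOD lies above NR4 in both conditions for Uqcrh and Atp5d, none past the test.

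Complex II, succinate dehydrogenase, also belongs to the citric acid cycle and is the only complex with no subunit encoded in mitochondrial DNA. None of its 4 genes passed. Averaged responses were -0.06 for Sdha (the flavoprotein), 0.07 for Sdhb (the iron-sulphur protein), and -0.12 and 0.01 for the membrane anchors Sdhc and Sdhd, with limma adjusted p from 0.74 upward. After quantile normalization the value for Sdhc was -0.08. Averaged strain differences lay between -0.06 (Sdhd) and -0.01 (Sdha), all 4 slightly negative. In NR4 the response of Sdhc was -0.24 (SE 0.11, limma adjusted p = 0.55) and in NOD -0.01.

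Complex III, the cytochrome c reductase, had 8 genes, and 5 had a positive averaged response. Uqcrfs1 encodes the Rieske iron-sulphur protein, which takes electrons from coenzyme Q. It read -0.11, -0.12 and 0.07 in unstimulated and 0.21 and 0.06 in stimulated NOD cells, and -0.12, -0.21 and -0.11 in unstimulated and 0.02, 0.00 and 0.11 in stimulated NR4 cells. All stimulated NR4 arrays lay above the unstimulated ones, and in NOD unstimulated replicate 3 lay above a stimulated array. The response of Uqcrfs1 was 0.19 in NOD and 0.19 in NR4, and 0.19 in the average (SE 0.07, interval 0.03 to 0.34, limma adjusted p = 0.28).

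The structural core proteins Uqcrc1 and Uqcrc2 had averaged responses of 0.10 and -0.03, and Uqcrb, a small subunit, -0.13 (limma adjusted p = 0.60), or -0.22 when probe sets with a suffix for shared or similar transcripts were left out. Uqcrh, the acidic hinge protein, lies on chromosome 4 and had the lowest p of complex III for the strain. Its NOD arrays read 0.09, 0.04 and 0.09 unstimulated and 0.07 and 0.03 stimulated. Its NR4 arrays read -0.06, -0.04 and -0.09 unstimulated and -0.37, -0.13 and -0.01 stimulated. Every NOD array was above every NR4 array, and the averaged difference of Uqcrh was 0.18 (SE 0.08, interval 0.01 to 0.34, limma adjusted p = 1.0).

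Uqcrh and Atp5d were the 2 members whose strains did not overlap in either condition in the same direction, 2.44% of the members beside 1.54% of all genes. The chromosome 4 members were Uqcrh, Ndufb6, Ndufs5 and Sdhb, with averaged strain differences of 0.18, 0.02, -0.27 and -0.01. Where these genes lie relative to the NOR segment was not analysed here.

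The 4 probe sets of Uqcrq, a small subunit of complex III, did not go the same way in NR4. One had a response of -0.33 and another of 0.36, with unadjusted p of 0.025 and 0.029 in the limma fit of single probe sets and adjusted p of 0.44 and 0.46. The value of the gene, 0.09 in NR4, is the median over probe sets that differ in sign.

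Complex IV, cytochrome c oxidase, has several subunits with paired isoforms, a widely expressed form and one restricted to muscle, lung or testis. The 17 genes had a median averaged response of 0.04. The lowest p belonged to Cox5a, a matrix-side subunit near the cytochrome c site, which read -0.01, -0.01 and 0.04 in unstimulated and 0.05 and 0.06 in stimulated NOD cells. In NR4 Cox5a read -0.11, -0.13 and -0.04 unstimulated and 0.11, 0.09 and 0.00 stimulated. Stimulated arrays were above unstimulated ones in both strains, yet the response was 0.10 (SE 0.06, limma adjusted p = 0.62). It was -0.00 when the probe sets with such a suffix were left out.

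Cox5a, Atp5md and Ndufb6 were the 3 members with stimulated above unstimulated arrays in both strains, and Ndufb3 was the 1 with the reverse. Together they compare with 5.64% of all genes. Cox7a2l, which links complexes III and IV into larger assemblies, had a response of -0.17 (SE 0.11, limma adjusted p = 0.73). Its value of -0.67 on stimulated NR4 replicate 1 lay well below its other arrays, the next lowest being -0.17, and without that array the response was -0.07.

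For the strain, Cox8a had 0.12 (SE 0.06) and Cox7c 0.25 (SE 0.13), both with limma adjusted p = 1.0. When probe sets with such a suffix were left out, Cox8a was at 0.020, and with the mean of its probe sets at 0.060. Cox7c is a small subunit whose stimulated arrays read 0.44 and 0.10 in NOD and 0.18, -0.39 and -0.18 in NR4, which overlap. The strain difference in stimulated cells was 0.40 (SE 0.20, limma adjusted p = 0.996), and the averaged value for Cox7c was 0.52 when the same probe sets were left out and 0.16 without stimulated NOD replicate 1.

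Among the widely expressed isoforms, the averaged responses were -0.05 for Cox4i1, -0.07 for Cox6a1, 0.09 for Cox6b1 and -0.01 for Cox7a2. The restricted partners read 0.00 for Cox4i2, -0.00 for Cox6a2, 0.25 for Cox6b2, 0.07 for Cox7a1, 0.17 for Cox8b, -0.09 for Cox8c and -0.08 for Cox7b2. No member of either kind passed. Cox8b, the muscle form, had a value of 1.16 on stimulated NR4 replicate 2 and values between -0.19 and 0.26 elsewhere.

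Complex V, ATP synthase, had strain differences that were mostly positive. Of its 17 genes, 15 were higher in NOD in unstimulated cells, 15 in stimulated cells and 14 in the average, with a median of 0.08 in the average, beside 0.00 over all genes. None passed the test. In the average, 57 of 76 mitochondrial ribosome genes (median 0.06) and 16 of 22 citric acid cycle genes (0.10) were also higher in NOD. Atp5d encodes the delta subunit of the central stalk and had the lowest p for the averaged strain difference of all members. Its NOD arrays read 0.12, 0.00 and 0.22 unstimulated and 0.08 and 0.05 stimulated, and its NR4 arrays -0.07, -0.11 and -0.14 unstimulated and -0.03, -0.00 and -0.21 stimulated.

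NOD lay above NR4 without overlap in both conditions, with an averaged difference for Atp5d of 0.18 (SE 0.07, interval 0.03 to 0.34, limma adjusted p = 1.0). Atp5b, the catalytic beta subunit, had 0.15 (SE 0.07) and Atp5e, the epsilon subunit of the stalk, 0.15 (SE 0.07). The alpha subunit Atp5a1 was at -0.00 and the gamma subunit Atp5c1 at -0.05, while Atp5o, which joins the head to the outer stalk, was at 0.16. The 3 genes for the same ring protein, Atp5g1, Atp5g2 and Atp5g3, differed by 0.12, 0.10 and 0.05.

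The averaged response in complex V had a median of -0.02, and 6 of 17 genes were positive. Atp5j2, the f subunit of the membrane part, read 0.02, 0.11 and 0.12 in unstimulated and 0.05 and -0.14 in stimulated NOD cells. In NR4 it read -0.02, 0.02 and 0.01 unstimulated and -0.08, -0.21 and -0.25 stimulated. The NR4 conditions did not overlap and the NOD ones did, and the response of Atp5j2 was -0.16 (SE 0.07, limma adjusted p = 0.40). Atp5md, a small subunit of the membrane part, was at 0.16 (SE 0.08, limma adjusted p = 0.50), with its highest value, 0.35, on stimulated NR4 replicate 3, and at 0.11 without that array.

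The spread among replicates was lower for the subunit genes than over all genes. The sets were not matched for brightness or for the number of probe sets per gene. The residual SD within groups had a median of 0.119 over the 82 members and 0.179 over all genes. It was 0.263 over 8 members known as restricted or inducible forms (Cox4i2, Cox6a2, Cox6b2, Cox7a1, Cox7b2, Cox8b, Cox8c and Ndufa4l2) and 0.112 over the other 74. The largest values belonged to Cox8c (0.844), Uqcr11 (0.502), Ndufb1 (0.432), Ndufb4 (0.430) and Ndufs5 (0.403), genes looked at because of that spread.

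Since these genes were picked for their spread within groups, a difference by replicate number larger than one by strain or stimulation is no trait of the members. The differences between numbers were tested after the values were seen, in the limma fit that holds the replicate number as a block. Between replicates 3 and 1, 8 members passed (9.76%), beside 13.8% of all genes. Between replicates 2 and 1, 3 members passed (3.66%) beside 0.951%, and between replicates 3 and 2, 0 members and 0% of all genes. There was no stimulated NOD replicate 3.

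Uqcr11, a small subunit of complex III, read 0.66, 0.76, 0.68 and 0.93 on the 4 arrays numbered 1. It read between -0.18 and 0.24 on those numbered 2, and between -0.31 and -0.02 on those numbered 3. Arrays numbered 1 stood above all others in every group, and replicate 3 minus replicate 1 was -0.90 (SE 0.08, limma adjusted p = 0.0019). Replicate 2 minus replicate 1 was -0.78 (limma adjusted p = 0.011).

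Cox8c, a testis isoform of a complex IV subunit, went the other way. Arrays numbered 1 read from -1.08 to -0.87, those numbered 2 from -0.15 to 0.39, and those numbered 3 from 0.51 to 0.71. Replicate 3 minus replicate 1 was 1.65 (SE 0.13, limma adjusted p = 0.0010). This came from a single probe set of its 2, which ranged from -2.13 to 1.41, while the other ranged from -0.21 to 0.55 and differed by -0.12 between the same replicates.

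**Figure D4:**
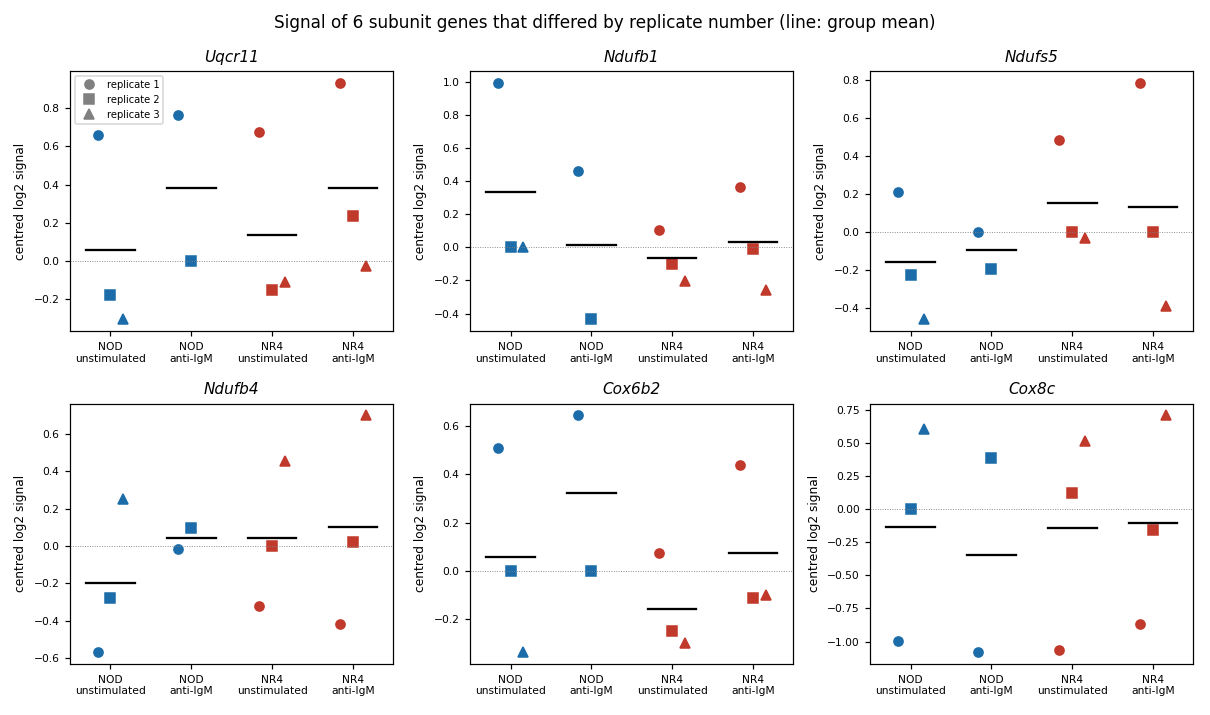
Centred log2 signal of Uqcr11, Ndufb1, Ndufs5, Ndufb4, Cox6b2 and Cox8c on each of the 11 arrays by group, with symbols for the replicate number, blue for NOD, red for NR4 and a line at the group mean. Circles (replicate 1) lie highest in each group for Uqcr11, Ndufb1, Ndufs5 and Cox6b2 and lowest for Ndufb4 and Cox8c.

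Ndufb4, an accessory subunit of complex I, was higher in replicate 3 than in replicate 1 by 0.88 (SE 0.09, limma adjusted p = 0.0031), and Cox7b2 by 0.33 (limma adjusted p = 0.045). Lower in replicate 3 were Ndufs5 with -0.74, Ndufb1 with -0.69, Cox6b2 with -0.61 and Ndufa4l2 with -0.54, at limma adjusted p of 0.012, 0.024, 0.011 and 0.047. The number of members that passed was 4 to 9 when each array was left out in turn. It was 4 without stimulated NR4 replicate 3, and 5 without unstimulated NOD replicate 1, unstimulated NOD replicate 3 or unstimulated NR4 replicate 3. Between replicates 2 and 1 it was 0 to 4.

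Some of these genes have near copies, and probe sets shared with the copies read differently. The single-symbol probe set of Ndufs5 gave an averaged strain difference of -0.27, and the one shared with its pseudogene 0.21. For Ndufb4 the values were -0.15 and, on the 2 probe sets shared with its copies, 0.13 and 0.18. None of these passed. These members are uncertain, since the array cannot assign the shared signal to a copy.

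Over all members together, which include the genes picked above for their spread, most pairs of arrays of the same number resembled each other. The correlations given next were not computed without those genes, so they do not show whether the remaining members share the resemblance. After the group means were taken out, the members' values correlated between unstimulated NOD and unstimulated NR4 arrays of the same number with r = 0.77, 0.37 and 0.59, across genes and as a description. Between stimulated NOD and stimulated NR4 arrays r was 0.57 for number 1 and only 0.07 for number 2. The deviations of the 2 stimulated NOD arrays from their mean are mirror images, so these values are not separate pairs. A replicate number is not stated in the labels to mark a shared day or lot, and what it stands for was not tested.

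Other genes of energy metabolism were compared through 10 lists with 241 genes besides the subunits. In the averaged response, 0 of 19 assembly factors of complexes I and II passed, with a median of -0.11, and 0 of 28 of the other complexes, with a median of -0.05. The same held for 23 electron carriers and ADP exchange genes (median -0.04), 22 of the citric acid cycle (-0.06), 76 of the mitochondrial ribosome (-0.06, 19 positive) and 10 of redox defence (0.02). Of the subunits encoded in mitochondrial DNA only 1 was measured, at 0.04.

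Higher in stimulated cells were Hspd1, the mitochondrial chaperonin, by 0.44 (SE 0.07, limma adjusted p = 0.016), which was 1 of 23 import genes, and Myc, 1 of 22 regulators of mitochondrial biogenesis. In glycolysis 2 of 17 genes passed, Slc2a1 and Hk2, and 15 of 17 were positive with a median of 0.23. The subunit median was -0.00. Of the 241 genes, 4 passed (1.66%), a share near the 1.56% of all genes. With the replicate number as a block 10 did (4.15%), a share near the 3.07% of all genes. Among the 6 further genes, with log2 responses from the fit without the block, Pprc1 (0.46, a coactivator of mitochondrial genes) and Tomm20 (0.30, an import receptor) were higher. Sdhaf2 (-0.38) and Ndufaf3 (-0.40), assembly factors of complexes II and I, were lower, as were Pdk1 (-0.43, a kinase that restrains pyruvate dehydrogenase) and Polg2 (-0.44, a subunit of the mitochondrial DNA polymerase). Their limma adjusted p with the block were 0.015, 0.044, 0.024, 0.018, 0.029 and 0.043, and without it 0.056, 0.053, 0.082, 0.27, 0.059 and 0.088. No gene of the 10 lists passed for the averaged strain difference.

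**Figure D5:**
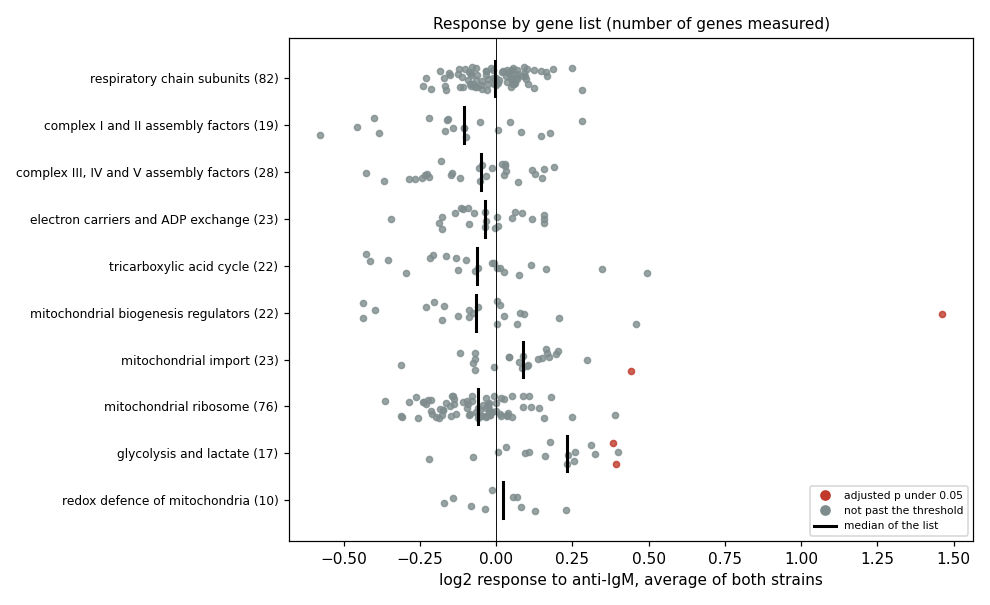
Averaged response to anti-IgM (log2, both strains) for each gene of the subunit set and of 9 other lists of energy metabolism with more than 1 gene measured; points are genes, bars are list medians and red marks a limma adjusted p under 0.05 in the fit without the block. The subunit points lie in a narrow band around 0, and the glycolysis points lie mostly to the right.

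Over the whole series, 283 genes passed for the averaged response without the block and 558 with it, and in NR4 75 and 229. Of 9 B cell markers, 4 passed and were lower after stimulation (Cd79b, Ms4a1, Cd22 and Cd37, with log2 responses of -0.62, -0.51, -0.99 and -0.54). Only 2 of the 9 had a positive averaged response, and the median over the 9 was -0.51. Of 9 T cell markers only Cd5, which B cells can also express, passed and was higher. On stimulated NR4 replicate 1 the 3' probe sets of the control genes Actb and Gapdh exceeded the 5' ones by 0.96 on average, relative to the median array. The other stimulated arrays read 0.21 and 0.13 in NOD and 0.04 and 0.23 in NR4. Unstimulated arrays read -0.01, -0.04 and -0.08 in NOD and -0.05, -0.07 and 0.29 in NR4. The measure was thus mostly higher on stimulated arrays, and its part in the responses was not tested. Stimulated NR4 replicate 1 held the lowest value of 27 of the 82 members and the highest of 18. Without it, 0 members passed in all 7 comparisons, as with every other array left out in turn. Without it the averaged response of Ndufb3 was -0.19 in place of -0.24, and the averaged strain difference of Uqcrh 0.13 in place of 0.18.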

How the data were processed

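The authors deposited log2 values of 45101 probe sets on 11 Affymetrix arrays, computed by RMA per the submitters' processing notes; the software is not given in the sources used here. The file does not name the log base, taken as 2, and every probe set has a median of 0 over the arrays, a centring the labels do not mention. Levels and detection calls are thus lost, and no filter on dim probes could be applied. Arrays have no read depth, and precision is limited by how many arrays there are.

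Of the probe sets, 34945 had 1 gene symbol in the platform annotation, 932 had several and 64 were controls. A gene took the median of its probe sets with 1 symbol, which gave 18193 genes. All 82 members matched RefSeq by Entrez identifier. The model, fitted in limma 3.58.1 (R 4.3.3) to all 11 arrays, holds a mean per group (4 groups, leaving 7 residual degrees of freedom), with empirical Bayes moderation and Benjamini-Hochberg adjustment over all genes within each of 7 two-sided comparisons, at a threshold of 0.05. "Passed" means past that threshold. Differences are given as NOD minus NR4 and as anti-IgM minus unstimulated. Per the labels, cells of each lot were cultured both ways, but no label says that a replicate number marks a lot, so arrays were treated as independent and the number entered only as an alternative. The steps were tested on simulated data.

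Same-numbered arrays were checked for pairing across all genes. The deviations from group means correlated with 0.59, 0.21 and 0.51 between unstimulated NOD and NR4, and with 0.33, 0.22 and 0.47 between the NR4 conditions, all above the limit of 0.1. Comparisons with stimulated NOD have only 2 pairs, which are not separate, since the deviations of its 2 arrays from their mean are mirror images. Between stimulated NOD and stimulated NR4 the values were 0.37 and -0.12, the latter below the limit. Between the NOD conditions they were 0.63 and 0.12. The fit with the replicate number as a block has 5 residual degrees of freedom.

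Named members are those past the threshold, the 2 with the smallest p of each complex in the averaged comparisons and the 2 overall in the others, the core subunits and isoform families, and genes whose probe sets differed in sign with unadjusted p under 0.05 on both sides. Members that differed by replicate number, those with the largest spread, the chromosome 4 members, Ndufb11, Ndufs3 and Atp5e were picked after their values were seen. The members and the gene lists were chosen with earlier results of these data known. Alternatives were quantile normalization, array medians subtracted, other summaries of probe sets, the replicate block as a fixed or random term, robust moderation, and each array left out in turn.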

Additional observations from a re-analysis of the deposited data

How the results depend on the processing

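For each of the 7 comparisons the number of subunit genes past the threshold stayed at 0 under all 22 alternatives, 11 of which left out an array, and the lowest limma adjusted p in any of them was 0.091. The members' median kept within 0.03, the SD between replicates of that median, for most settings. With the replicate number as a block, the median strain difference in stimulated cells was 0.0449 in place of 0.0130, and the block changed no call among the members. With arrays left out in turn, that median ran from -0.0169 to 0.0720, the median response in NOD from -0.0486 to 0.0140, and the median interaction from -0.0744 to 0.0286. The median of the averaged strain difference ran from 0.0205 to 0.0592. The 2 ends of the first 3 came from leaving out stimulated NOD replicate 1 or 2, and the cause was not tested beyond the smaller number of arrays. Signs of single members are not firm: up to 14 of the 82 averaged differences changed sign in a setting, at most 2 of them above 0.1 in size as reported. The replicate-number contrasts, the fit of each probe set on its own and the median without the 8 restricted isoforms were chosen after seeing the data. Centring leaves no signal over background, so dim and bright probe sets cannot be told apart.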
